A study of Mus musculus with 12 samples.

Results

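The insulin-like growth factor (IGF) genes Igf1, Igf2, Igf1r, Igf2r and Igfbp2 to Igfbp7 were examined in mouse trigeminal nerve, which carries sensation from the face. These 10 genes were taken by symbol as the ligands, receptors and binding proteins of the IGF system, and all 10 were found among the 47480 symbols measured. The libraries came from 6 samples of normal nerve, Nf1 flox/flox without Cre (PostnCre-), and 6 of plexiform neurofibroma, Nf1 flox/flox with Cre (PostnCre+). Both groups thus carried the floxed Nf1 alleles, and tumour state and the Cre transgene cannot be told apart. The Cre is named for Postn, the gene of the matrix protein periostin, and the labels do not say in which cells it acted. They give no age, sex or litter and do not say whether the samples came from separate animals, so the p-values measure the spread between these samples.

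IGF1 and IGF2 are secreted growth factors that signal through the receptor tyrosine kinase IGF1R to the PI3K-AKT and RAS-ERK cascades. IGF2R binds IGF2, carries it to lysosomes and does not signal as a kinase. The binding proteins hold the ligands in the extracellular space, where they can withhold them from the receptor or release them after cleavage by proteases. In nerve, Schwann cells respond to IGF1 with survival, growth and myelination.

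Total counts ran from 14160025 to 19989351 per library. Nf1, the floxed gene, was lower in the tumours (131 CPM ± 35.8 against 83.8 CPM ± 8.13, SD, n = 6 each; adjusted p = 0.0179, edgeR). Its groups overlapped, with 85.6 to 173 CPM in normal nerve and 69.6 to 93.1 CPM in the tumours. The Nf1 call was not followed through the alternative fits described below. CPM is the count of a gene relative to the effective size of its library. Of the 8 Schwann cell markers, 5 were called higher in the tumours, beside 10.0% of all genes tested. Markers of sensory neurons, whose cell bodies lie in the ganglion of the nerve, summed to at least 2997 CPM in every library. They include the transcription factor genes Isl1 (72.8 to 145 CPM) and Pou4f1 (68.6 to 172 CPM), named after their values were seen. The share of ganglion in each sample was not measured. Of the 9 fibroblast markers, 5 were called higher, and their summed level did not overlap between the groups. It ran from 185 to 1265 CPM in normal nerve and from 1467 to 3449 CPM in the tumours. Macrophage markers were called higher for 3 of 8. In 3 libraries markers of neighbouring tissue stood out. Skeletal muscle markers summed to 418 CPM in normal nerve 3 and 1745 CPM in plexiform neurofibroma 1, and central nervous system markers to 2223 CPM in normal nerve 6. Plexiform neurofibroma 1 also held 161 CPM of adipocyte markers, against at most 1.26 CPM elsewhere, and 700 CPM of central nervous system markers, the second highest sum. Outside normal nerve 6 and plexiform neurofibroma 1, central nervous system markers still summed to 162 to 538 CPM, with normal nerve 2 the highest. Normal nerve 4 held 39.3 CPM of skeletal muscle markers. Markers of mural cells, which include smooth muscle, summed to 395 CPM in normal nerve 6 and 444 CPM in plexiform neurofibroma 2, and to at most 225 CPM in the other libraries. In bulk tissue, fewer cells of a type and less RNA per cell cannot be told apart.

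Of the 10 IGF system genes, Igfbp3 and Igfbp7 were called higher in the plexiform neurofibromas and 0 lower by edgeR's quasi-likelihood test, with 0.05 as the threshold for an adjusted p. At an unadjusted p under 0.05 in edgeR, 2 were lower (Igf2 and Igfbp2), and the share of all genes at that threshold was not counted. DESeq2 called Igf2 lower and gave no adjusted p for Igfbp2. Over all 17236 genes tested, 18.7% were called, 10.0% higher and 8.63% lower, and DESeq2 called 11.9% lower. Without the 3 libraries named above, 3 of the 10 genes were called higher (Igfbp3, Igfbp4 and Igfbp7), against 12.4% of all genes tested. The median log2 fold change of the 10 genes was 0.37, against -0.02 for all genes tested. Of the 6 binding protein genes, 5 had a fold change above 0, as did 47.5% of all genes tested. Neither the ligand genes nor the receptor genes passed the test. Each library is shown in the plot of the 10 genes by library.

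**Figure D1:**
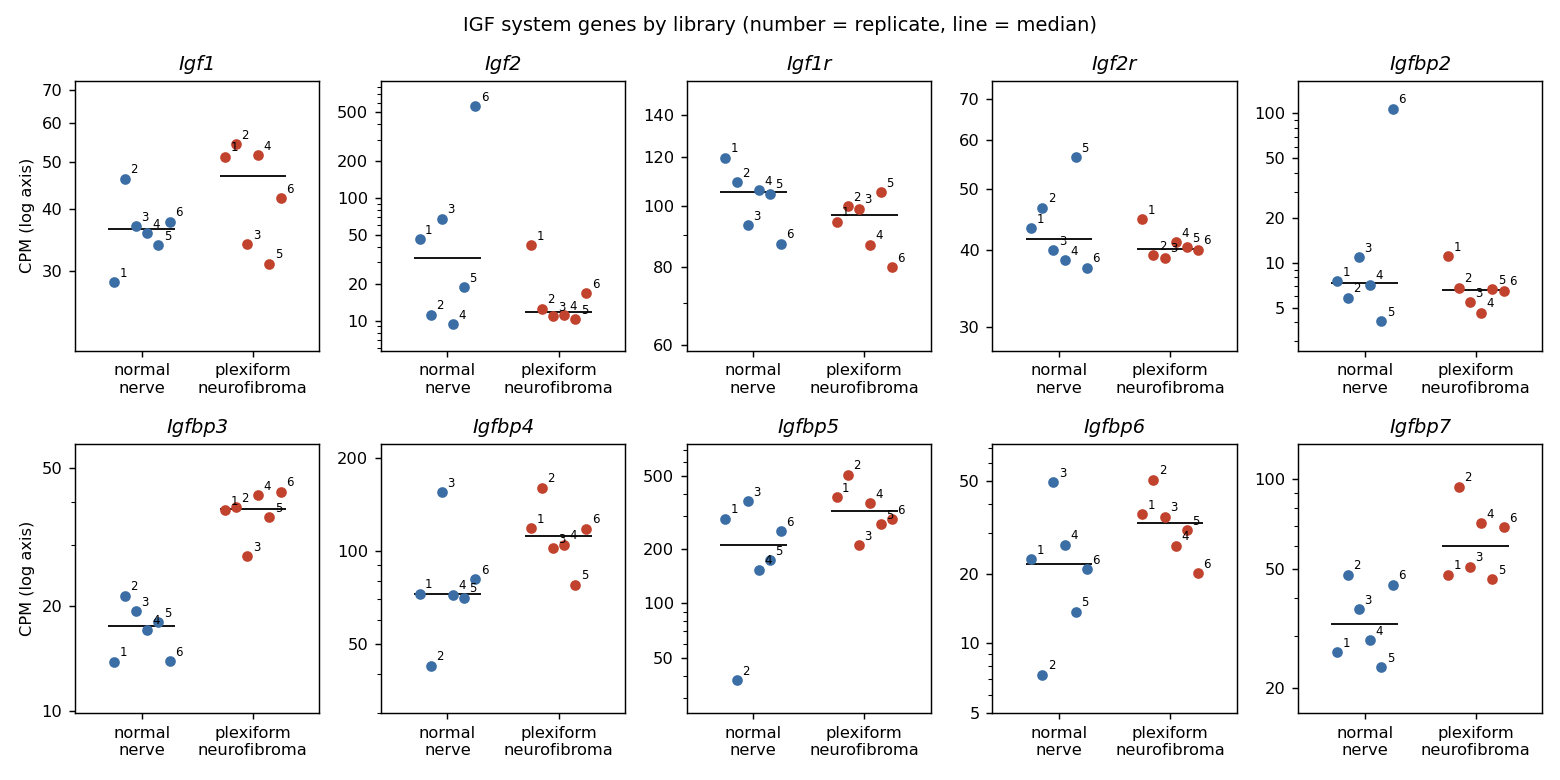
CPM on a log axis of the 10 IGF system genes in each of 6 normal nerve and 6 plexiform neurofibroma libraries, with a line at each group's median. The groups are separate for Igfbp3 and overlap for the other 9 genes, and normal nerve 6 stands above all other libraries for Igf2 and Igfbp2.

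The promoters of 3 binding protein genes are shown because these genes carry the main contrasts below: Igfbp3 and Igfbp7 were called higher, and Igfbp2 was not. Each run is the 250 bases before the RefSeq transcription start on GRCm38.p6, read 5′ to 3′ on the gene's own strand. The sites are chr11:7213924-7214173 (minus strand) for Igfbp3, chr5:77408046-77408295 (minus strand) for Igfbp7 and chr1:72824230-72824479 (plus strand), the first of 2 annotated starts, for Igfbp2. Capitals mark the GC box GGGCGG or its complement.
Igfbp3 promoter: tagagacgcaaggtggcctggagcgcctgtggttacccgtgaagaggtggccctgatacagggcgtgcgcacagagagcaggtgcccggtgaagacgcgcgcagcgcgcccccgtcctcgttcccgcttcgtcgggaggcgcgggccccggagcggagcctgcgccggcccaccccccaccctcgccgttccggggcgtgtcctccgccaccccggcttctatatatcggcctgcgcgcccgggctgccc
Igfbp7 promoter: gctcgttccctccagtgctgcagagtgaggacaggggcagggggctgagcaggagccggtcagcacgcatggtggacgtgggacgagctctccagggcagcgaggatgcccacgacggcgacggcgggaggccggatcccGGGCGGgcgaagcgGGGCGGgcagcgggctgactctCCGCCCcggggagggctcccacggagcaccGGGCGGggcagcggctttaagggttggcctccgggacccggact
Igfbp2 promoter: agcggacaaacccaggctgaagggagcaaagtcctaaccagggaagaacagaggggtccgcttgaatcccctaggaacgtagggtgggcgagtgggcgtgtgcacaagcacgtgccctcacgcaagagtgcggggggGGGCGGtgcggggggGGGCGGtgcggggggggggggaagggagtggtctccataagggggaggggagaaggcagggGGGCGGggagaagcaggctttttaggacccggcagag

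The GC box was present 4 times before Igfbp7 and 3 times before the first start of Igfbp2 and had 0 matches before Igfbp3. The exact TATA box string TATAAA and the AP-1 site TGANTCA, sought on both strands as well, had 0 matches in these 3 windows. The window before the second start of Igfbp2, not shown, differed, with 0 matches to the GC box and 1 to TGANTCA. Variants of the TATA box were not sought, and the Igfbp3 window holds the related run tatatat near its end. Among 32851 promoter windows of the same length, 32.7% held GGGCGG, 12.4% held TATAAA and 6.75% held TGANTCA. The windows of Igfbp3 and Igfbp7 held 73.2% and 74.0% G or C. These matches describe the letters of the windows and say nothing of binding in the nerve.

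Igfbp3, the main carrier of IGFs in blood and a binding protein made by many stromal cells, showed the clearest difference of the 10 genes. The gene lies on chromosome 11 from 7206086 to 7213923 (GRCm38, minus strand). In normal nerve it had a lowest level of 13.9 CPM, a median of 17.5 CPM and a highest of 21.4 CPM. In the plexiform neurofibromas the lowest was 27.9 CPM, the median 38.2 CPM and the highest 42.7 CPM. Every tumour library was above every normal library. Such a separation held for 1 of the 10 genes upward and 0 downward, and for 4.40% and 2.99% of all genes tested. Mean levels were 17.3 ± 3.01 CPM and 37.5 ± 5.32 CPM (SD, n = 6 each), so that the tumours held 2.17 times the normal level (log2 fold change 1.12, SE 0.13, adjusted p = 0.001). Calls with a rise of at least 2-fold were made for 2.16% of all genes tested. The gene was called higher in all 24 alternative fits, with log2 fold changes from 1.06 to 1.20 and a highest adjusted p of 0.00403. The summed Schwann cell markers (2538 to 6254 CPM in normal nerve, 6358 to 11372 CPM in plexiform neurofibroma) and the fibroblast markers were also separate between the groups, and their part in the Igfbp3 difference was not tested. The neighbouring gene Igfbp1, 3539 bases away, was at 0 in 10 of 12 libraries, with 1 count in each group, and was too low to test.

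Igfbp7 encodes a secreted protein that is structurally related to the IGF binding proteins, binds IGFs weakly and is found in vessel walls and matrix. It lies on chromosome 5 from 77349240 to 77408041 (minus strand), and overlaps Polr2b on the opposite strand. The lowest, median and highest levels were 23.5, 32.8 and 47.9 CPM in normal nerve. They were 46.3, 59.9 and 94.3 CPM in the tumours. The groups overlapped only where normal nerve 2, at 47.9 CPM, exceeded plexiform neurofibroma 5 at 46.3 CPM. Mean levels were 34.6 ± 9.98 CPM and 63.3 ± 18.6 CPM (SD, n = 6 each), a rise of 1.83-fold (log2 fold change 0.87, SE 0.22, adjusted p = 0.0176). All 24 alternative fits called it, with log2 fold changes from 0.72 to 1.06. Polr2b, named here after its values were seen, averaged 85.4 CPM in normal nerve against 80.5 CPM in plexiform neurofibroma (adjusted p = 0.56). Whether counting used strand is not given in the sources used here. Endothelial cells make Igfbp7 in many tissues. Of 7 endothelial markers, edgeR and DESeq2 each called 0 higher and 1 lower, beside 8.63% and 11.9% of all genes called lower. At an unadjusted p under 0.05, 4 were lower in each, and the share of all genes at that threshold was not counted. The marker sum ran from 88.5 to 208 CPM in normal nerve and from 73.3 to 128 CPM in plexiform neurofibroma. The part of endothelial cells in the Igfbp7 levels was not tested.

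Igfbp4, Igfbp5 and Igfbp6 had higher means in the tumours, but none of these 3 genes passed the test. IGFBP4 is an inhibitor of IGF action that the protease PAPP-A cleaves, IGFBP5 binds matrix as well as IGFs, and IGFBP6 binds IGF2 in preference to IGF1. Igfbp4 had a lowest level of 42.5 CPM, a median of 72.4 CPM and a highest of 154.5 CPM in normal nerve, and 77.8, 111 and 160 CPM in the tumours. Its groups overlapped through normal nerve 3, the highest normal library, and normal nerve 6, which stood just above the lowest tumour. The log2 fold change was 0.46 (SE 0.26, adjusted p = 0.218). Without normal nerve 3 it was 0.75 (adjusted p = 0.0218), in a fit that called 8.99% of all genes higher. Without 3 libraries (normal nerve 3, normal nerve 6 and plexiform neurofibroma 1) it was 0.81 (adjusted p = 0.0243), and the groups no longer overlapped. The call of Igfbp4 thus turned on 1 library.

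Igfbp5 ran from 37.6 to 364 CPM in normal nerve with a median of 210 CPM. In the tumours it ran from 209 to 509 CPM with a median of 323 CPM. Normal nerve 2 was lowest, at 0.151 of the median of the other normal libraries, and the groups overlapped in the middle of the range. The log2 fold change was 0.67 (SE 0.41, adjusted p = 0.259) and did not pass the test in any alternative. It was 0.46 without normal nerve 2 (adjusted p = 0.24), 0.91 without normal nerve 3 (adjusted p = 0.147), 1.01 without the 3 libraries (adjusted p = 0.186) and 1.05 with a leptomeningeal score as covariate (adjusted p = 0.0951). Igfbp5 lies 5457 bases from Igfbp2 on chromosome 1, on the opposite strand.

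Igfbp6 ran from 7.32 to 49.6 CPM in normal nerve, with a median of 21.9 CPM. In the tumours it ran from 20.1 to 50.8 CPM, with a median of 33.0 CPM. The ranges overlapped widely, with normal nerve 2 lowest and normal nerve 3 second only to plexiform neurofibroma 2. The log2 fold change was 0.50 (SE 0.37, adjusted p = 0.36). It was 0.31 without normal nerve 2 (adjusted p = 0.513), 0.87 without normal nerve 3 (adjusted p = 0.0788) and 0.89 without the 3 libraries (adjusted p = 0.126).

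The libraries extreme for these genes were also extreme for markers of several cell types. Normal nerve 2 was the lowest of 12 libraries for Igfbp4, Igfbp5, Igfbp6 and the fibroblast marker sum, and normal nerve 3 was the highest normal library for each of them. Plexiform neurofibroma 2 was the highest tumour library for each, and for Igfbp7 as well. The summed Schwann cell and mural markers were likewise lowest in normal nerve 2 and highest in plexiform neurofibroma 2, and the macrophage sum was lowest in normal nerve 2. Sensory neuron markers went the other way. Their sum was the highest of 12 libraries in normal nerve 2 (6290 CPM) and the lowest of the tumours in plexiform neurofibroma 2 (4422 CPM). The part of any of these cell types in the levels was not tested.

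**Figure D2:**
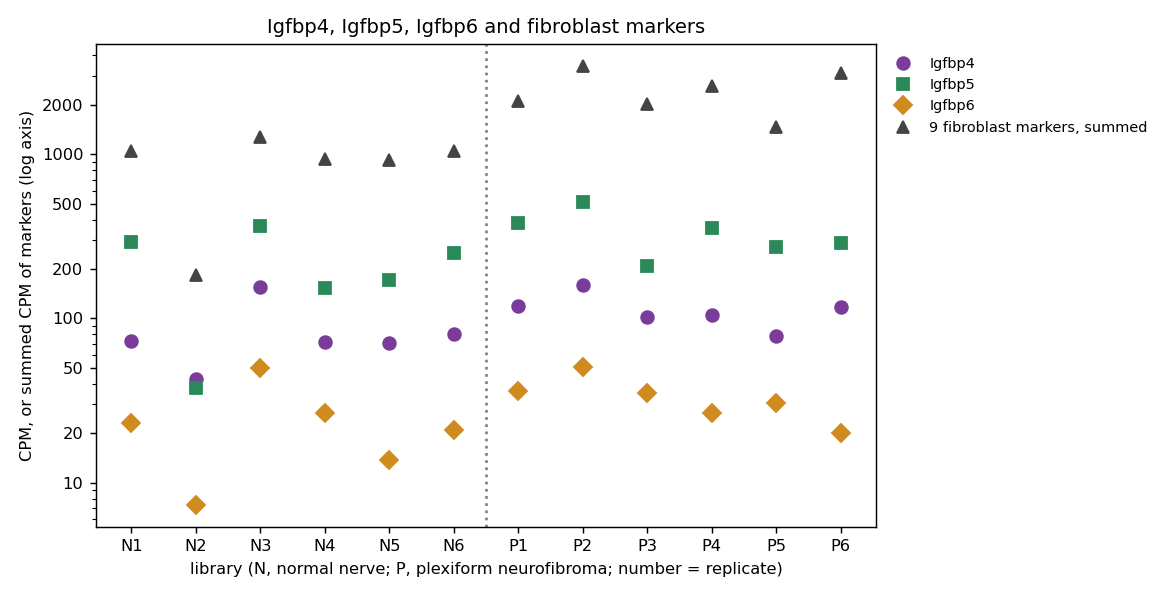
CPM of Igfbp4, Igfbp5 and Igfbp6 and the summed CPM of 9 fibroblast markers in each library, on a log axis. Normal nerve 2 is the lowest library for all 4 measures, and the marker sum, unlike the 3 genes, is higher in every tumour than in every normal library.

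Igfbp2 and Igf2 had lower means in the tumours, neither passed the test, and both differences shrank without 1 normal library. IGFBP2 is a binding protein abundant in embryos and in meninges and choroid plexus. Igf2 is a paternally expressed imprinted gene that is active in the embryo and persists in the adult meninges. Igfbp2 ran from 4.06 to 107.6 CPM in normal nerve, with a median of 7.36 CPM, and from 4.65 to 11.1 CPM in the tumours, with a median of 6.61 CPM. Normal nerve 6 held the highest value, against a median of 7.16 CPM in the other normal libraries, and the remaining libraries of both groups overlapped. The log2 fold change was -1.79 (SE 0.79, adjusted p = 0.127) with all libraries and -0.05 without normal nerve 6 (adjusted p = 0.9).

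Igf2 lies on chromosome 7 from 142650766 to 142666816 (minus strand) with 4 annotated starts that counts per gene cannot tell apart. It measured 46.3, 11.2, 67.8, 9.32, 18.8 and 563 CPM in normal nerve 1 to 6. In plexiform neurofibroma 1 to 6 it measured 41.3, 12.5, 10.9, 11.1, 10.2 and 16.7 CPM. Normal nerve 6 was 30.0 times the median of the other normal libraries, and the groups overlapped. The log2 fold change was -2.80 (SE 1.02, adjusted p = 0.0746), and -0.84 without normal nerve 6 (adjusted p = 0.319). DESeq2 called the gene lower (log2 fold change -2.79, adjusted p = 0.0155), as did the edgeR fit with a sensory neuron score as covariate (-1.44, adjusted p = 0.0468), in which 12.8% of all genes were called lower.

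The 4 libraries highest in Igf2 were normal nerve 6, 3 and 1 and plexiform neurofibroma 1. The same 4 were highest in Igfbp2 and in the sum of 7 leptomeningeal markers. Of these markers edgeR and DESeq2 each called 0. At an unadjusted p under 0.05, 1 was lower, and the share of all genes at that threshold was not counted. That sum ran from 12.3 to 204 CPM in normal nerve, with a median of 30.6 CPM, and from 17.3 to 73.6 CPM in the tumours, with a median of 21.0 CPM. Each of the 7 markers had counts in all 12 libraries. With a leptomeningeal score per library as covariate, the log2 fold change was -0.36 for Igf2 (adjusted p = 0.433) and -0.09 for Igfbp2 (adjusted p = 0.894). With a central nervous system score, for which normal nerve 6 is also the highest library, it was -1.02 for Igf2 (adjusted p = 0.0706) and -0.42 for Igfbp2 (adjusted p = 0.433). With the sensory neuron score, for which normal nerve 6 is the lowest library, Igfbp2 was at -0.76 (adjusted p = 0.125). Normal nerve 6 is the extreme library of each score and of both genes, so these fits cannot tell a tissue from that 1 library. The parts of meningeal and central nervous tissue in these levels were not tested.

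**Figure D3:**
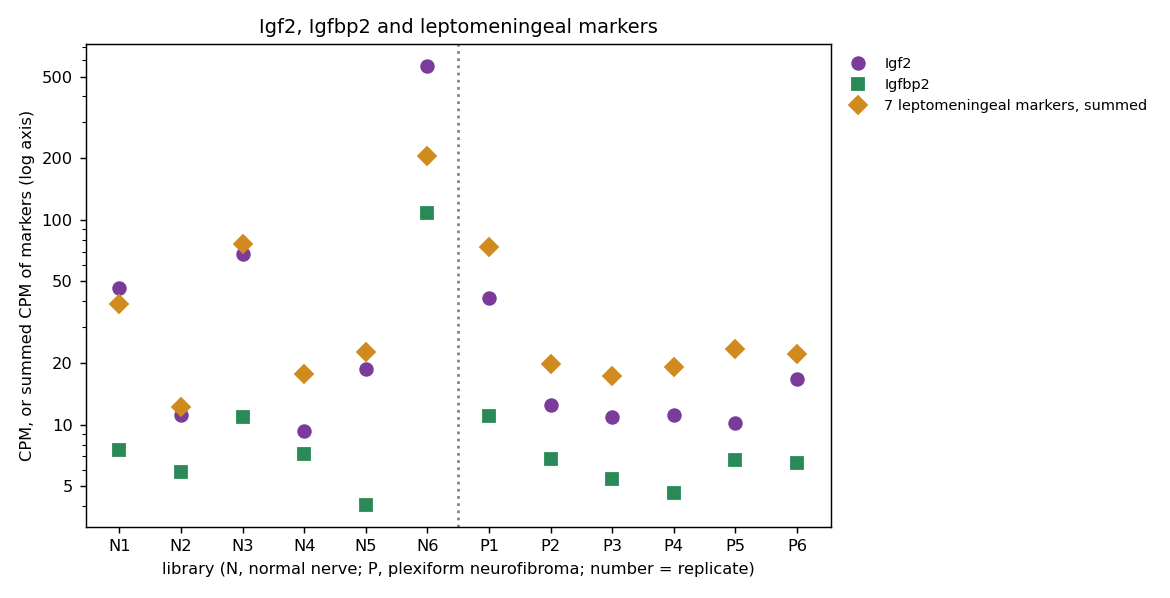
CPM of Igf2 and Igfbp2 and the summed CPM of 7 leptomeningeal markers in each library, on a log axis. Normal nerve 6 is highest for all 3 measures, and normal nerve 1 and 3 and plexiform neurofibroma 1 hold the next ranks.

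Igf1, which is made by macrophages, fibroblasts and other stromal cells, did not pass the test. It ran from 28.4 to 46.2 CPM in normal nerve, with a median of 36.4 CPM, and from 31.0 to 54.4 CPM in the tumours, with a median of 46.7 CPM. The groups overlapped, with plexiform neurofibroma 1, 2 and 4 above every normal library. The log2 fold change was 0.27 (SE 0.15, adjusted p = 0.217). Macrophage markers, of which 3 of 8 were called higher, summed to 43.7 to 212 CPM in normal nerve and 145 to 302.5 CPM in the tumours, and their part in Igf1 was not tested.

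By the ratio of the highest to the lowest library of a group, the receptor genes varied least of the 10 genes. Igf1r ran from 87.0 to 119.5 CPM in normal nerve and from 79.9 to 105.3 CPM in the tumours (log2 fold change -0.13, SE 0.09, adjusted p = 0.304). Igf2r ran from 37.4 to 56.3 CPM and from 38.9 to 44.8 CPM (log2 fold change -0.10, SE 0.09, adjusted p = 0.464). The highest normal library exceeded the lowest 1.37-fold for Igf1r, against 60.5-fold for Igf2 and 26.5-fold for Igfbp2. Both signs turned under a correction for transcript length, to 0.042 and 0.03. Airn, the antisense RNA that overlaps Igf2r, was named after its values were seen and averaged 3.23 and 3.35 CPM.

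**Figure D4:**
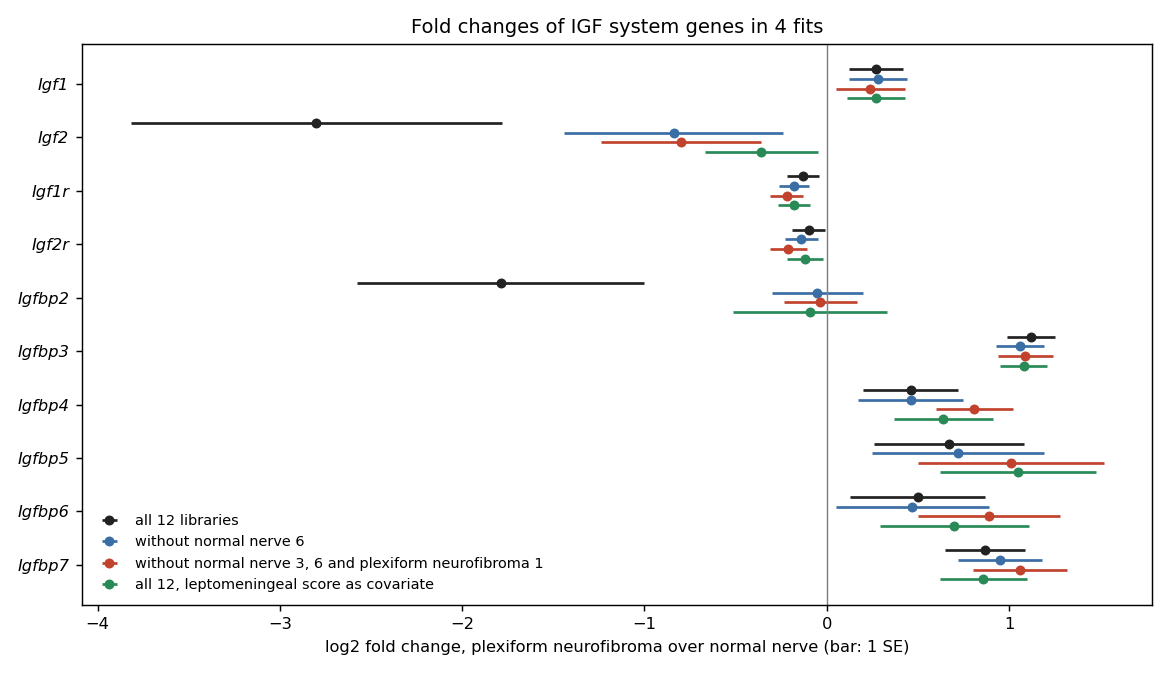
Log2 fold changes (plexiform neurofibroma over normal nerve, bars 1 SE) of the 10 genes in 4 edgeR fits. The fits are all libraries, without normal nerve 6, without 3 libraries (normal nerve 3, normal nerve 6 and plexiform neurofibroma 1), and with a leptomeningeal covariate. Igfbp3 stays between 1.06 and 1.12 and Igfbp7 between 0.86 and 1.06, while Igf2 and Igfbp2 move toward 0 in the other 3 fits.

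On a scale of CPM per kilobase of the longest annotated transcript, the binding proteins Igfbp5, Igfbp7, Igfbp6 and Igfbp4 were the most abundant of the 10 genes in both groups. Their median levels in normal nerve were 35.0, 27.3, 19.7 and 18.9, and those in the tumours were 53.7, 50.0, 29.7 and 29.1. In normal nerve the order went on with Igf1r, Igfbp3, Igf2, Igfbp2, Igf1 and Igf2r, from 9.23 down to 4.69. Among neighbours in that order, only Igf1r and Igfbp3 lay further apart than the larger of their SDs. In the tumours Igfbp3, at 15.8, stood above Igf1r at 8.48, and Igf2 was last at 2.51. There the gaps above Igfbp6, Igfbp3, Igf1r and Igf1 exceeded the larger SD, and the other neighbours lay within it.

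Likeness to the called genes was measured as the root mean square difference of centred log2 CPM over the 12 libraries, among 12543 genes with a mean of at least 5 CPM. The genes nearest to Igfbp3 were Dusp6, an ERK phosphatase induced by ERK signalling, at 0.211, and Casp12, a caspase, at 0.235. Rpl10a-ps1 followed at 0.243, and as a pseudogene its counts are uncertain. Dusp6 averaged 22.4 CPM in normal nerve against 44.8 CPM in plexiform neurofibroma (adjusted p = 0.000297). The genes nearest to Igfbp7 were Psmb10, an immunoproteasome subunit, at 0.240, Sox4, a transcription factor, at 0.244, and Acvrl1, an endothelial TGF-beta family receptor, at 0.253. Genes that differ between the groups share that difference, so these distances describe these libraries only.

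Of 51 other genes of the IGF and insulin pathway, 45 were tested, 8 were called higher and 7 lower, against 10.0% and 8.63% of all genes tested, with a median log2 fold change of -0.05 against -0.02. Groups did not overlap for 2 of the 45 upward and 2 downward, against 4.40% and 2.99% of all genes tested. Of the receptors outside the IGF family, 3 of 4 were higher. These were Itgav (log2 fold change 0.66, adjusted p = 0.0292) and Itgb3 (0.68, adjusted p = 0.0289), the subunits of an integrin that cooperates with IGF1R, and Tmem219 (0.45, adjusted p = 0.014), which encodes a receptor for IGFBP3. Itgb3 rose from 12.1 ± 3.07 to 19.5 ± 4.75 CPM (SD, n = 6 each), with no overlap. Itgav lost its call in 6 of 24 alternative fits, Itgb3 in 4 and Tmem219 in 1, the transcript length correction (adjusted p = 0.0512).

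Of the proteases and their partners, 5 of 8 were tested and 1 was lower, beside 8.63% of all genes tested. Pappa encodes PAPP-A, the protease that frees IGFs from IGFBP4. It fell from a median of 14.2 CPM to one of 10.5 CPM (log2 fold change -0.51, adjusted p = 0.0315), and lost its call in 9 of 24 alternative fits. The related Pappa2 had a log2 fold change of 0.14 (adjusted p = 0.853).

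Among the insulin receptor and its adaptors, 1 of 8 tested genes was higher and 1 lower, beside 10.0% and 8.63% of all genes tested. Irs2, an adaptor of the insulin and IGF1 receptors, fell from 61.2 ± 6.75 to 46.3 ± 5.60 CPM (SD, n = 6 each; log2 fold change -0.40, adjusted p = 0.0129) and was called in all 24 alternative fits. Gab1, a docking protein, was at the threshold (log2 fold change 0.48, adjusted p = 0.0499) and lost its call in 14 of 24. Irs1 had a log2 fold change of 0.37 (adjusted p = 0.203), and Insr, the insulin receptor, of -0.23 (adjusted p = 0.0505). Grb10, an imprinted inhibitor of these receptors, had one of -0.14 (adjusted p = 0.624).

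In the growth hormone axis, which drives IGF1 production in liver, 1 of 5 genes was higher, beside 10.0% of all genes tested. Stat5a rose from 8.12 ± 1.99 to 13.4 ± 1.90 CPM (SD, n = 6 each; log2 fold change 0.72, adjusted p = 0.0115), and Ghr, the growth hormone receptor, had a log2 fold change of 0.02 (adjusted p = 0.922). Among the IGF2 mRNA-binding proteins and imprinted partners, 4 of 6 were tested and 1 was lower, beside 8.63% of all genes tested. That gene was Igf2bp3, which binds Igf2 mRNA (log2 fold change -0.58, adjusted p = 0.0184).

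Of 19 PI3K-AKT genes, 3 were higher and 4 lower, beside the same 10.0% and 8.63%. Eif4ebp1, the translation repressor that mTORC1 inactivates, rose from 4.24 ± 0.564 to 7.51 ± 1.92 CPM (SD, n = 6 each; log2 fold change 0.82, adjusted p = 0.00763), with no overlap. Foxo1, a transcription factor that AKT excludes from the nucleus, had a log2 fold change of 0.70 (adjusted p = 0.0092), and the kinase gene Akt2 one of 0.35 (adjusted p = 0.0115). Pdpk1, the kinase upstream of AKT, was lower (-0.38, adjusted p = 0.0193). So were the mTOR complex subunits Rictor (-0.33, adjusted p = 0.0212) and Rptor (-0.28, adjusted p = 0.0176) and the mTORC1 inhibitor Tsc1 (-0.22, adjusted p = 0.0128). The groups did not overlap for Rptor (52.8 to 66.2 CPM in normal nerve, 46.3 to 51.6 CPM in plexiform neurofibroma) or Tsc1 (60.5 to 66.5 and 51.1 to 57.7 CPM). With a correction for transcript length Tsc1 was -0.11 (adjusted p = 0.145) and Pdpk1 -0.28 (adjusted p = 0.0512). The pathway genes called lower then numbered 2 in place of 7, Irs2 and Igf2bp3, beside 6.54% of all genes tested in place of 8.63%. Thus Pdpk1, Rictor, Rptor and Tsc1 all lost their calls in that fit.

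**Figure D5:**
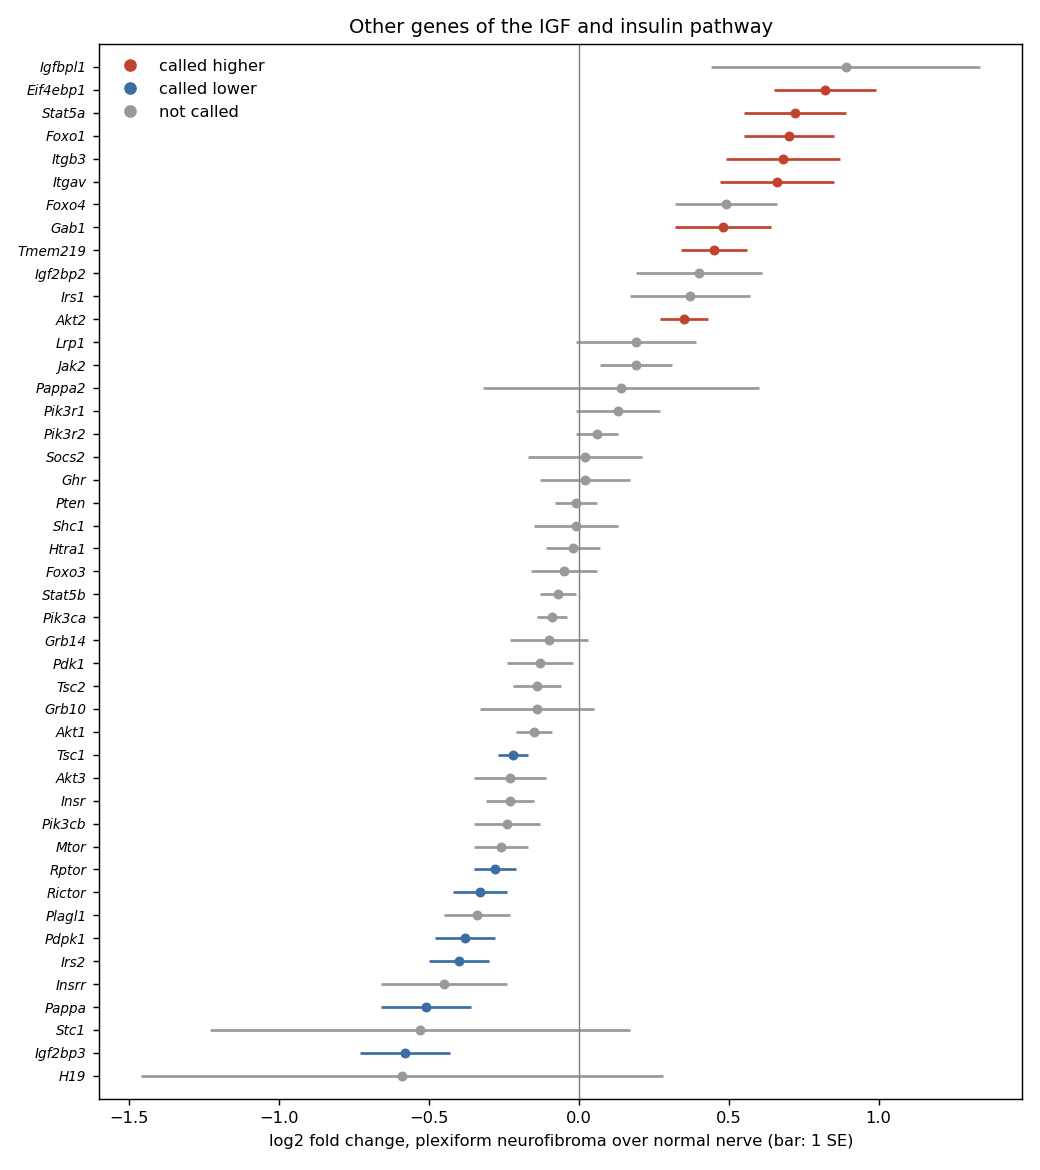
Log2 fold changes (plexiform neurofibroma over normal nerve, bars 1 SE) of the 45 tested pathway genes, coloured by call. The 8 genes called higher lie between 0.35 and 0.82 and the 7 called lower between -0.58 and -0.22.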

How the data were processed

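RNA was measured in 6 normal nerve and 6 plexiform neurofibroma libraries. Per the submitters' processing notes, the tools were FastQC, STAR 2.4.2a, Salmon 0.60 and DESeq2, in no stated role, and the build was mm10. Neither the annotation nor the strand setting of the counting is stated in these notes or the labels. The labels name both a KAPA stranded kit and a TruSeq kit. The authors deposited estimated counts (expected counts) per gene symbol without normalization, of which 84.1% to 86.5% per library were whole numbers within 0.001. These were rounded before testing. Estimated counts can share reads among near-identical genes. No 2 libraries of a group agreed within sampling noise (smallest mean chi-square per gene 12.8, with 1 degree of freedom).

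Genes passing filterByExpr (17236) were tested in R 4.3.3 by edgeR 4.0.16 (robust quasi-likelihood F test, group as the only term, TMM factors). Benjamini-Hochberg adjustment of the p-values ran over all of them, and an adjusted p with no tool beside it is from this test. An SE is the log2 fold change divided by the square root of F. Levels are CPM on TMM-scaled library sizes, and log2 CPM used a prior count of 2. Of the symbols, 45187 (95.2%) matched GENCODE vM21 on GRCm38, which gave coordinates and lengths. Promoters came from RefSeq (GRCm38.p6).

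The 10 genes, the pathway and marker lists and the tests were chosen with earlier results of these data known. The genes named are the 10 members, Nf1, every called pathway gene, 8 receptors, adaptors, proteases and other partners whether called or not, and the 3 genes most like each called member. Other genes were chosen after their values were seen, and the text says so. The alternatives were DESeq2 1.42.0, voom with sample weights (limma 3.58.1), RLE or upper-quartile factors, dropping the filter or asking for CPM above 1 in 6 libraries, covariates for skeletal muscle, sensory neuron, central nervous system and leptomeningeal scores, a transcript length correction (lowess span 0.3), and each library left out in turn. A fit without 3 libraries (normal nerve 3, normal nerve 6 and plexiform neurofibroma 1) was added after seeing the data. The scripts were tested on simulated data.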

Additional observations from a re-analysis of the deposited data

Results flagged for a closer look

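In 30 genes and both groups, 60 sets of 6 libraries were checked for a library far from the rest, and 9 had one. Chance gives about 5% of sets only where values are normally distributed and sets are independent. These sets used CPM without logs and shared the same libraries, and every flag was at the high end. The 9 therefore cannot be read as an excess over that 5%. Normal nerve 6 stood above the other normal libraries for Igf2 (563 CPM), Igfbp2 (108 CPM) and Grb10 (86.1 CPM), and it is the library with the highest central nervous system and leptomeningeal marker sums. Plexiform neurofibroma 1, which carried skeletal muscle markers, stood above the other tumours for Igf2 (41.3 CPM), Igfbp2 (11.1 CPM) and Ghr (83.2 CPM). Normal nerve 3, which also carried muscle markers, stood above the other normal libraries for Igfbp4 (155 CPM). Foxo1 was high in normal nerve 1 (52.9 CPM), and Pappa2 in plexiform neurofibroma 2 (8.59 CPM).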

How the results depend on the processing

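Across 24 alternatives the number of IGF system genes called higher stayed between 2 and 3. The number called lower was 0 except under DESeq2 and with the sensory neuron covariate, where it was 1, and it was 0 to 0 when single libraries were left out. Pathway genes called higher numbered 8, and 5 to 9 with 1 library left out, the 5 coming without plexiform neurofibroma 2, 4 or 6. In those fits 6.98%, 6.30% and 6.99% of all genes tested were called higher, against 10.0% in the main fit. Pathway genes called lower numbered 7, but 4 with no filter, 13 with limma-voom and 11 with the sensory neuron or central nervous system covariate. They numbered 2 with the length correction, 11 without the 3 libraries, and 5 to 13 with 1 left out, the 13 coming without normal nerve 6. The share of all genes called lower moved as well. It was 8.63% in the main fit, 2.80% with no filter and 15.7% with limma-voom. With the sensory neuron and central nervous system covariates it was 12.8% and 12.7%, and with the length correction 6.54%. Without the 3 libraries it was 10.9%, and without normal nerve 6 it was 14.2%. Genes called in all numbered 3218, but 5565 with limma-voom and 1893 to 5031 with 1 library left out. The lowest came without plexiform neurofibroma 4, 2098 without normal nerve 5 and the highest without normal nerve 6. The cause of these shifts was not tested.

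Signs turned for log2 fold changes near 0. Igf1r was 0.042 and Igf2r 0.03 with the length correction. Ghr, 0.02 in the main fit, was -0.027 with limma-voom, -0.00011 with the muscle covariate, -0.20 without the 3 libraries, and -0.15 to 0.076 with 1 library left out. Pappa2 was -0.47 to 0.33 with 1 left out. Grb10, -0.14 in the main fit, was 0.087 with limma-voom, 0.0012 with the central nervous system covariate, 0.044 with the leptomeningeal covariate, 0.092 without the 3 libraries, and -0.21 to 0.10 with 1 left out. Each of the 10 genes had at least 57 counts in every library. No paired analysis was possible because the labels give no pairing of samples, and the groups differ in Cre genotype, so no animal can be in both. The labels give no replicate numbers, and the numbers used here only name samples in accession order.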

Other observations

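H19, the maternally expressed RNA that lies 72622 bases from Igf2, was chosen after its values were seen. It was highest in normal nerve 3 at 61.4 CPM, 12.6 times the median of the other normal libraries, and highest among the tumours in plexiform neurofibroma 1 at 23.0 CPM. These are also the 2 libraries with the highest skeletal muscle marker sums (418 and 1745 CPM), and the part of muscle RNA in the H19 level was not tested. Normal nerve 6, the library highest in Igf2, held 5.51 CPM of H19. Between the groups its log2 fold change was -0.59 (SE 0.87, adjusted p = 0.666, edgeR). Igf2os, the antisense RNA that overlaps Igf2, was also chosen after its values were seen. It was at 1.66 CPM in normal nerve 6 against a median of 0.278 CPM in the other normal libraries, and the strand setting of the counting is not known here.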
